A study of Bos taurus with 9 samples.

Results

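The SR protein genes measured here were SRSF1, SRSF2, SRSF3, SRSF4, SRSF5, SRSF6, SRSF7, SRSF9, SRSF10 and SRSF11, which are 10 of the 24596 genes in the deposited table and were found by gene symbol. The cells were primary epithelial cells of the bovine endometrium (BEEC), taken by scraping the lining of 3 uteri in the early luteal phase and grown as monolayers. They shared their wells with groups of 5 morulae from day 4 to day 8 after fertilisation, and each sample of total RNA came from 3 pooled wells. In the LOWAA group the morulae came from the regime of that name, in the HIGHGLUC group from the regime of that name and in the control group from the control regime. The names read as low amino acids and high glucose, and the labels give no concentrations. Cells of all groups met embryos, so no group shows BEEC without them. Each group held 3 libraries, namely replicates 8, 12 and 15 for LOWAA, 6, 10 and 14 for HIGHGLUC and 5, 9 and 13 for control. Nothing in the labels says that the libraries came from separate cultures or animals, so p-values reflect the spread between libraries alone, which may be technical.

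The genes were chosen by name, and SRSF5 was among the reasons for choosing them, since its exon reads were higher with LOWAA embryos. For this reason the members' values in LOWAA against control, and those of SRSF5 in LOWAA against HIGHGLUC, are given as a description with no test.

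SR proteins bind short enhancer motifs in exons through an RNA recognition motif and help the splicing machinery choose nearby splice sites through a tail rich in arginine and serine. Kinases of the SRPK family phosphorylate this tail in the cytoplasm, after which the protein is imported into the nucleus, and CLK kinases phosphorylate it further there. In human and mouse cells SR proteins limit their own amounts. Their transcripts can include an exon with a premature stop codon, the so-called poison exon, or keep an intron, and such transcripts are destroyed by nonsense-mediated decay or held in the nucleus. Exon reads, exon-exon reads (which cross a splice junction) and intron reads of these genes are therefore described side by side. In the uterus, epithelial transcripts respond to ovarian steroids and to signals of the embryo, and primary cells in culture keep only part of that response.

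The libraries held 2887097 to 13969325 exon reads, and the shallowest was control replicate 5. Levels are CPM, exon reads scaled to the library's total, and a gene with 0 reads could still have up to 3, or 0.215 CPM in the deepest and 1.04 CPM in the shallowest library. The cells carried epithelial keratins, with means of 4444 CPM for KRT8 and 1994 CPM for KRT18, but EPCAM had only 13 reads in all libraries together. Matrix genes of stromal fibroblasts were abundant too, with 5085 CPM for COL3A1 and 2103 CPM for DCN. The summed level of the 6 fibroblast markers was 11101 to 13072 CPM in LOWAA, 10451 to 12733 CPM in HIGHGLUC and 10781 to 13080 CPM in control libraries. The 6 epithelial markers summed to 8046 to 8498 CPM in LOWAA, 7876 to 8333 CPM in HIGHGLUC and 7839 to 8927 CPM in control libraries, so these sums overlapped between the groups. The leukocyte genes PTPRC and CD3E, the endothelial gene CDH5 and the embryo gene SOX2 had 0 reads. Other markers of these cell types did have reads, with means of 8.61 CPM for CD163 and 5.27 CPM for CD14 of leukocytes. The endothelial genes VWF and PECAM1 had 81 and 30 reads in all libraries together, and the embryo gene IFNT2 had 13. The embryo genes NANOG and POU5F1 were not found by symbol. In the order of library numbers each run of 3 libraries held 1 of every group, and these runs are called sets here. Set 1 held replicates 5, 6 and 8, set 2 replicates 9, 10 and 12, and set 3 replicates 13, 14 and 15. What the runs stand for is not given.

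Genes are listed here with their position in the genome build UMD3.1 as the table gives it. SRSF1 lies on chromosome 19 from 9038199 to 9041927, and SRSF2 on the same chromosome from 55666049 to 55669890. SRSF3 lies on chromosome 23 from 10481197 to 10487651. Chromosome 2 holds SRSF4 from 124956593 to 124982238 and SRSF10 from 129522679 to 129534734. SRSF5 lies on chromosome 10 from 81860043 to 81865204, SRSF6 on chromosome 13 from 72804659 to 72810323 and SRSF7 on chromosome 11 from 21105342 to 21110797. SRSF9 lies on chromosome 17 from 65008121 to 65014401, and SRSF11 on chromosome 3 from 75243968 to 75293883. The table lists 1 transcript for each of the 10 genes, so a read in an exon that this transcript lacks has no exon of its own to be counted in. Only SRSF2 overlapped another listed gene, by 186 bases of METTL23, which had 231 exon reads in all 9 libraries. Reads that matched a single place made up 71.9% to 76.2% of the exon reads of SRSF3, 54.6% to 64.9% of those of SRSF9 and 86.3% to 91.2% of those of SRSF10. The share was at least 99.3% for SRSF2, and every exon read of the other members matched a single place. Levels of SRSF3, SRSF9 and SRSF10 are thus less certain, because near-identical copies elsewhere can take or give reads.

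All 10 genes were well expressed and together took 0.119% to 0.189% of the exon reads of a library. Per length of exon SRSF3 was the most abundant, with a mean of 146 RPKM (exon reads scaled by exon length and by the reads of the library) and a range of 119 to 165 over the 9 libraries. SRSF3 is the shortest of the classical SR proteins and also takes part in the export of mRNA. SRSF5 followed with a mean of 82.7 RPKM, SRSF1 with 78.7 RPKM, SRSF6 with 76.1 RPKM and SRSF10 with 65.5 RPKM. SRSF7 had 61 RPKM, SRSF9 56.9 RPKM, SRSF2 56.8 RPKM, SRSF11 56 RPKM and SRSF4 50.8 RPKM. The lowest library of SRSF3 lay above the highest library of SRSF5, which was at 112 RPKM, while the ranges of all neighbours further down this order overlapped. The members differed in how far they varied between libraries. The coefficient of variation of the exon level over the 9 libraries was 22.3% for SRSF5 and 20.5% for SRSF6, but 4.90% for SRSF10, 6.14% for SRSF11 and 6.35% for SRSF9.

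The exon level of SRSF5 was higher in LOWAA than in control libraries in all 3 sets, and SRSF6 showed nearly the same pattern. SRSF5 had 137, 186 and 166 CPM in LOWAA replicates 8, 12 and 15, 85.4, 142 and 132 CPM in HIGHGLUC replicates 6, 10 and 14, and 102, 131 and 133 CPM in control replicates 5, 9 and 13, on the TMM-scaled CPM used for all levels from here on. Every LOWAA library thus lay above every control library, whereas LOWAA replicate 8 lay below HIGHGLUC replicate 10. SRSF5 is an SR protein whose transcript was first described as an early response to insulin and growth signals in rat liver cells. The fitted log2 fold change of exon reads was 0.41 ± 0.20 (SE) for LOWAA minus control, a ratio of 1.33, and 0.44 ± 0.20 for LOWAA minus HIGHGLUC. Within sets 1, 2 and 3 the log2 difference LOWAA minus control was 0.42, 0.51 and 0.32. Without LOWAA replicate 12, the library with the highest level, the log2 fold change was 0.30. Against HIGHGLUC it was 0.25 without HIGHGLUC replicate 6, the library with the lowest level. These are bulk RNA samples, in which fewer cells of a type and less RNA per cell cannot be told apart.

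SRSF6, an SR protein studied for its part in wound repair of mouse skin, had 301, 403 and 315 CPM in LOWAA libraries, 204, 329 and 277 CPM in HIGHGLUC libraries and 221, 273 and 275 CPM in control libraries. All LOWAA libraries lay above all control libraries, and 1 HIGHGLUC library (replicate 10) lay above LOWAA replicates 8 and 15. The log2 fold change of SRSF6 was 0.41 ± 0.18 for LOWAA minus control, or 0.26 without LOWAA replicate 12. Within sets 1, 2 and 3 the log2 difference LOWAA minus control was 0.45, 0.56 and 0.20. SRSF3 had 165, 169 and 164 CPM in LOWAA libraries, 124, 169.6 and 145 CPM in HIGHGLUC libraries and 134, 160.5 and 148 CPM in control libraries. Its LOWAA libraries were close together and all above control, with a log2 fold change of 0.17 ± 0.11 for LOWAA minus control. SRSF3, SRSF5 and SRSF6 were the 3 of 10 members without overlap between LOWAA and control, all of them higher in LOWAA. Over all 11839 genes tested, 4.69% had every LOWAA library above every control library and 5.02% had every LOWAA library below. Since that contrast was part of the choice of the genes, nothing is read from the count.

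In SRSF2 and SRSF4 a single LOWAA library stood apart. SRSF2, a component of nuclear speckles that also acts in transcription elongation, had 189.5, 267 and 190.4 CPM in LOWAA libraries, 167, 200.5 and 189.7 CPM in HIGHGLUC libraries and 167, 196 and 182 CPM in control libraries. SRSF4, an SR protein with a long arginine and serine tail, had 119, 169.9 and 129 CPM in LOWAA libraries, 102, 125 and 131 CPM in HIGHGLUC libraries and 102, 131 and 139 CPM in control libraries. In both genes LOWAA replicate 12 was the highest of all 9 libraries, and the other LOWAA libraries lay within the range of the other groups. The log2 fold change for LOWAA minus control was 0.25 ± 0.13 for SRSF2 and 0.16 ± 0.16 for SRSF4, and without LOWAA replicate 12 it was 0.06 and -0.01. LOWAA replicate 12 was the library with the highest exon level for 5 of the 10 members, and it also had the highest intron share over all genes, 13.7%. The part of this library in the result was not tested beyond the values without it.

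The other members hardly differed between LOWAA and control. SRSF1, the first SR protein to be described and one that shuttles between nucleus and cytoplasm, had 239, 261 and 250.5 CPM in LOWAA libraries, 194, 269.7 and 229 CPM in HIGHGLUC libraries and 205, 254 and 253 CPM in control libraries. SRSF7, which carries a zinc knuckle, had 75.7, 79.0 and 70.9 CPM in LOWAA libraries, 51.9, 65.9 and 71.1 CPM in HIGHGLUC libraries and 74.8, 80.4 and 71.0 CPM in control libraries. The LOWAA and control values of SRSF7 covered nearly the same range. SRSF9, an SR protein with a short tail, averaged 65.1 ± 2.59 CPM in LOWAA, 61 ± 5.19 CPM in HIGHGLUC and 64.4 ± 4.03 CPM in control libraries (SD, n = 3 each). SRSF10, which represses splicing in its dephosphorylated state, averaged 136 ± 7.53 CPM in LOWAA, 132 ± 8.22 CPM in HIGHGLUC and 139 ± 4.54 CPM in control libraries (SD, n = 3 each). SRSF11, which binds the factor that recognises the polypyrimidine tract, averaged 96.4 ± 6.46 CPM in LOWAA, 93.5 ± 8.01 CPM in HIGHGLUC and 95.7 ± 4.90 CPM in control libraries (SD, n = 3 each). The log2 fold changes of these 5 genes for LOWAA minus control lay between -0.02 and 0.07.

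**Figure D1:**
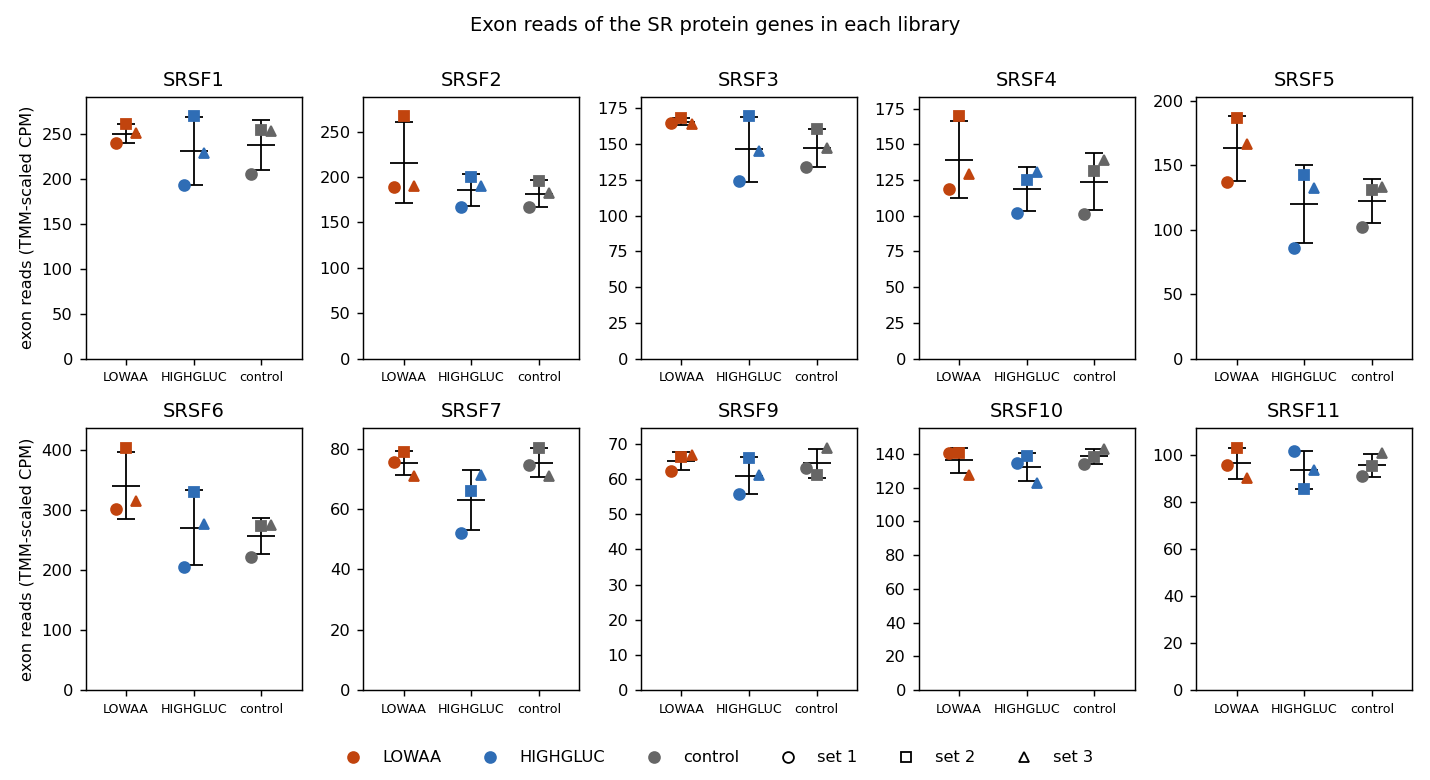
Exon reads of the 10 SR protein genes as TMM-scaled CPM (vertical axis, from 0) in LOWAA, HIGHGLUC and control libraries. Each point is a library, its shape gives the set, and the black lines give the mean and SD of 3 libraries. SRSF5 and SRSF6 spread most, with set 1 (circles) low in each group, while SRSF10 and SRSF11 stay in a narrow range.

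The spread of SRSF5 and SRSF6 within each group followed the sets. The mean level in set 1 divided by the mean of sets 2 and 3 was 0.728 for SRSF5, 0.776 for SRSF6 and 0.780 for SRSF4, against 1.01 for both SRSF10 and SRSF11. With the sets as a further term in the fit, the log2 fold change of SRSF5 was 0.42 ± 0.08 for LOWAA minus control, and that of SRSF6 was 0.40 ± 0.08 for the same comparison. The standard errors of both genes were thus smaller than in the fit without sets. In that fit 0.16% of all genes (19 of 11839) had an adjusted p under 0.05 for LOWAA minus control. Total exon reads did not meet the rule for treating the sets as pairs, so these values stand beside the fit without them.

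For LOWAA against HIGHGLUC 9 of the 10 members were tested. The LOWAA libraries in which SRSF5 was high enter this comparison too, so the tests are not independent of the choice of the genes. All 10 members had log2 fold changes above 0 for LOWAA minus HIGHGLUC, with a median of 0.20, while over all 11839 genes the share above 0 was 50.1% and the median was 0.00. None of the 9 tested members had an adjusted p under 0.05 in edgeR's quasi-likelihood test, and neither did any other gene (0% of all genes tested). At an unadjusted p under 0.05 there were 376 genes, and DESeq2 called 3 genes but no member. SRSF7 had a log2 fold change of 0.26 ± 0.11 (unadjusted p = 0.037, edgeR adjusted p = 0.999). SRSF6 had 0.33 ± 0.18 (unadjusted p = 0.0892, edgeR adjusted p = 0.999). Without HIGHGLUC replicate 6 these log2 fold changes were 0.14 for SRSF7 and 0.17 for SRSF6, and without LOWAA replicate 12 that of SRSF6 was 0.19. For the remaining tested members the log2 fold change lay between 0.04 for SRSF11 and 0.23 for SRSF4. No member had all LOWAA libraries above or below all HIGHGLUC libraries, which 3.87% and 4.43% of all genes did. Counted by sets, SRSF2, SRSF6, SRSF9 and SRSF10 as well as SRSF5 were higher in LOWAA than in HIGHGLUC in all 3 sets and no member was lower in all 3, which 14.3% and 14.2% of all genes were. With the sets as a term SRSF6 had a log2 fold change of 0.35 ± 0.08 (edgeR adjusted p = 0.149, in a fit that called 0.144% of all genes). With unique exon reads, for which the sets did meet the rule for pairs, the log2 fold change of SRSF6 was also 0.35 ± 0.08 and passed (edgeR adjusted p = 0.0491, range over 16 alternatives 0.0491 to 1.00), and that fit called 36 of 11700 genes (0.308%). HIGHGLUC replicate 6 was the lowest of the 9 libraries in 6 of the 10 members, and it enters both comparisons with HIGHGLUC.

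For HIGHGLUC minus control the exon log2 fold changes of the members lay between -0.26 for SRSF7 and 0.07 for SRSF6. Of the 10 members 2 had log2 fold changes above 0 for HIGHGLUC minus control, with a median of -0.04, beside 50.0% and a median of 0.00 over all genes. No member passed edgeR's quasi-likelihood test and neither did any other gene (0% of 11839), with 353 genes at an unadjusted p under 0.05 and 0 genes called by DESeq2. The member with the smallest p was SRSF7, which averaged 63 ± 9.92 CPM in HIGHGLUC and 75.4 ± 4.72 CPM in control libraries (SD, n = 3 each). Its log2 fold change was -0.26 ± 0.11 (unadjusted p = 0.0356, edgeR adjusted p = 1.00), or -0.14 without HIGHGLUC replicate 6. Within sets 1, 2 and 3 the log2 difference of SRSF7 was -0.53, -0.29 and 0.00. SRSF5 had a log2 fold change of -0.03 ± 0.20 for HIGHGLUC minus control and SRSF6 one of 0.07 ± 0.18. The direction of SRSF5 here turned with HIGHGLUC replicate 6, without which its log2 fold change was 0.16. No member had all HIGHGLUC libraries above or below all control libraries, which 3.78% and 3.57% of all genes did.

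Reads across splice junctions gave the same picture for SRSF5 and a different weight for SRSF2. Exon-exon reads made up 50.9% of the exon reads of SRSF5 on average over the 9 libraries, 64.7% of those of SRSF11 and 54.2% of those of SRSF7, but 5.18% of those of SRSF2 and 7.49% of those of SRSF1. SRSF5 had 717, 752 and 806 exon-exon reads in LOWAA libraries, 385, 523 and 434 in HIGHGLUC libraries and 158, 991 and 686 in control libraries. Scaled for depth, its log2 fold change in exon-exon reads was 0.38 ± 0.17 for LOWAA minus control and 0.51 ± 0.17 for LOWAA minus HIGHGLUC. SRSF6 had log2 fold changes of 0.35 ± 0.15 and 0.25 ± 0.15 in the same order. SRSF2 had 0.44 ± 0.18 for LOWAA minus control, on 26 to 132 exon-exon reads per library. All 10 members were above 0 for LOWAA minus HIGHGLUC in exon-exon reads as well, and of the 9 tested members none had an adjusted p under 0.05 in edgeR's test (0% of 10079 genes).

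Relative to their exon reads per kilobase, all 10 members had more intron reads per kilobase than the median gene, by widely different amounts. Pooled over the libraries, intron reads were 56.1% of the gene reads (exon and intron reads together) of SRSF10, 46.0% of those of SRSF4 and 42.5% of those of SRSF11. The share was 27.5% for SRSF2, 21.9% for SRSF5, 21.8% for SRSF7, 15.9% for SRSF6 and 12.3% for SRSF3, and it was 7.13% for SRSF9 and 2.14% for SRSF1. The median of 7970 genes with at least 1000 exon reads and 100 bases of intron was 8.09%, and 8 of the 10 members lay above it. Because long introns collect more reads, the density of intron reads per kilobase was also set against the density of exon reads per kilobase. This ratio had a median of 0.903% over the 7970 genes, and all 10 members lay above it. It was 157.5% for SRSF2, so a kilobase of its 747 bases of intron collected more reads than a kilobase of its exons. It was 29.0% for SRSF6, 23.5% for SRSF10 and 11.2% for SRSF5, at percentiles 99.3, 99.0 and 97.0 of those genes. SRSF4 had 8.25%, SRSF7 6.68% and SRSF1 6.15%. SRSF3 with 2.40%, SRSF11 with 2.35% and SRSF9 with 1.47% were closer to other genes, at percentiles 78.1, 77.6 and 65. With 50-base reads and 1 listed transcript, reads of a kept intron, of an unlisted exon and of unspliced RNA cannot be told apart.

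The intron share of SRSF6 was lower in LOWAA than in control libraries in each set, and that of SRSF5 likewise by unequal amounts. For SRSF5 intron reads made up 14.5%, 25.2% and 15.3% of gene reads in LOWAA libraries, 29.6%, 20.3% and 20.3% in HIGHGLUC libraries and 19.9%, 25.9% and 23.7% in control libraries. Within sets 1, 2 and 3 this is a difference of -5.39, -0.68 and -8.43 percentage points for LOWAA minus control. For SRSF6 the intron share was 11.8%, 15.6% and 13% in LOWAA libraries, 17.1%, 13.7% and 15% in HIGHGLUC libraries and 15.6%, 20.2% and 18.7% in control libraries. The differences within sets were -3.87, -4.65 and -5.69 points for LOWAA minus control. The shares rest on 72 to 652 intron reads per library for SRSF5 and 116 to 983 for SRSF6. The 95% Wilson interval reached at most 4.68 points to either side for any member in any library, which covers counting error only.

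The intron share over all genes was 8.07%, 13.7% and 9% in LOWAA libraries, 7.54%, 8.91% and 8.98% in HIGHGLUC libraries and 7.05%, 10.5% and 10.3% in control libraries. LOWAA replicate 12 had the highest intron share over all genes and also the highest intron share in 7 of the 10 members. Divided by the share over all genes in the same library, the intron share of SRSF5 was 1.80, 1.84 and 1.69 in LOWAA libraries, 3.92, 2.27 and 2.26 in HIGHGLUC libraries and 2.82, 2.46 and 2.29 in control libraries. All LOWAA libraries lay below all others on this scale. For SRSF6 it was 1.46, 1.14 and 1.45 in LOWAA libraries, 2.26, 1.53 and 1.67 in HIGHGLUC libraries and 2.22, 1.92 and 1.81 in control libraries, again with no overlap. The LOWAA libraries of SRSF3, at 1.1 to 1.19, lay below its control libraries, at 1.23 to 1.56, but not below HIGHGLUC replicate 10, at 1.06. Thus 3 of 10 members had all LOWAA libraries below all control libraries and 2 had them below all HIGHGLUC libraries, and none had them above either. Of the 7970 genes with at least 1000 exon reads, 3.98% and 4.25% lay below in this way, and exon reads, which were part of the choice, enter the share. SRSF7, taken as a contrast after its values were seen, had 1.91 to 2.37 in LOWAA, 2.21 to 3.1 in HIGHGLUC and 1.98 to 2.33 in control libraries, and its groups overlapped.

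**Figure D2:**
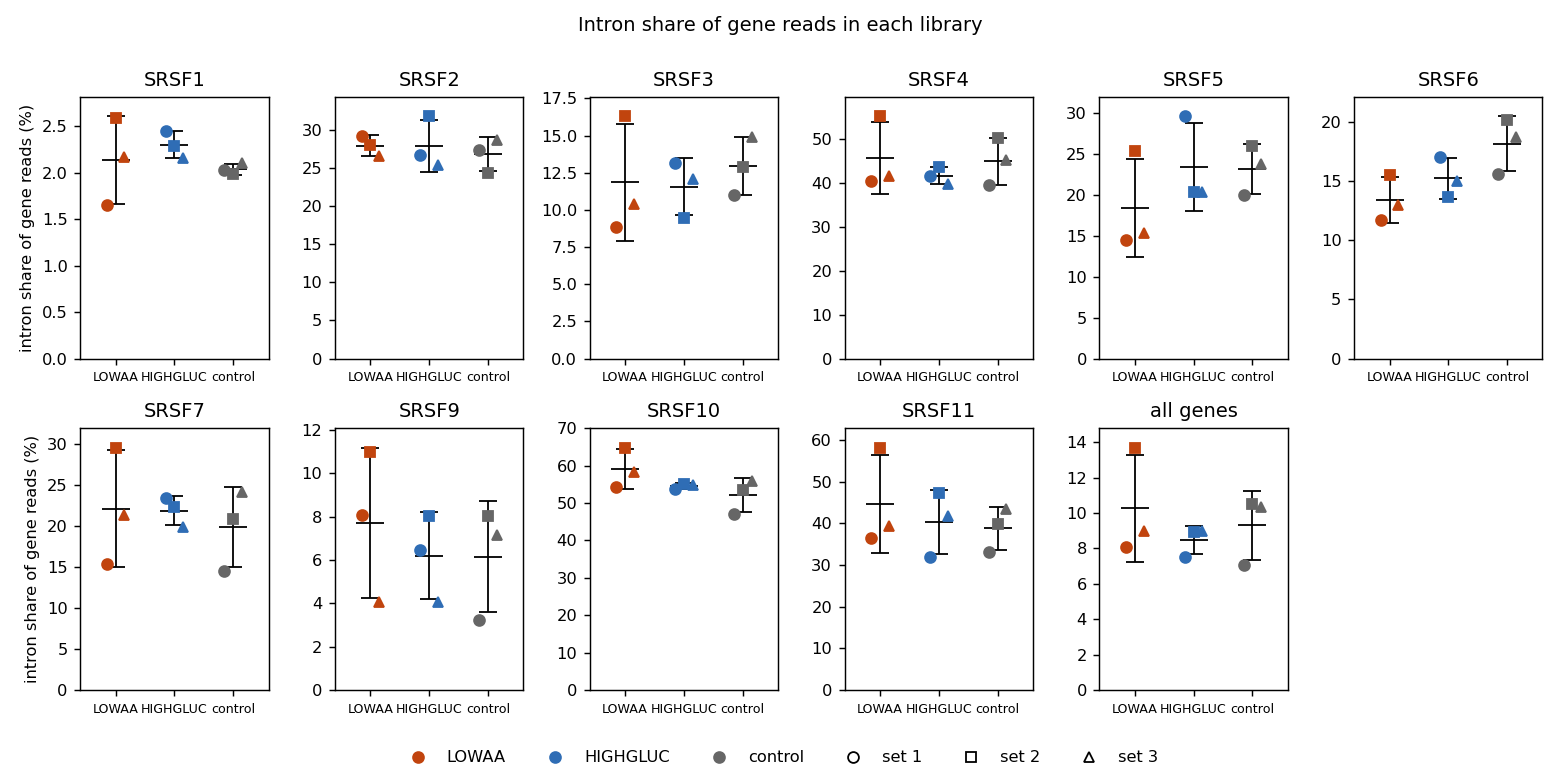
Intron reads as a percentage of exon and intron reads together (vertical axis, from 0, with its own scale for each gene) in LOWAA, HIGHGLUC and control libraries, for the 10 SR protein genes and for all genes summed. Points are libraries, shapes give the sets and black lines the mean and SD of 3 libraries. LOWAA replicate 12 (square) is high for most genes and for all genes summed, and SRSF6 is lower in LOWAA than in control libraries in every set.

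**Figure D3:**
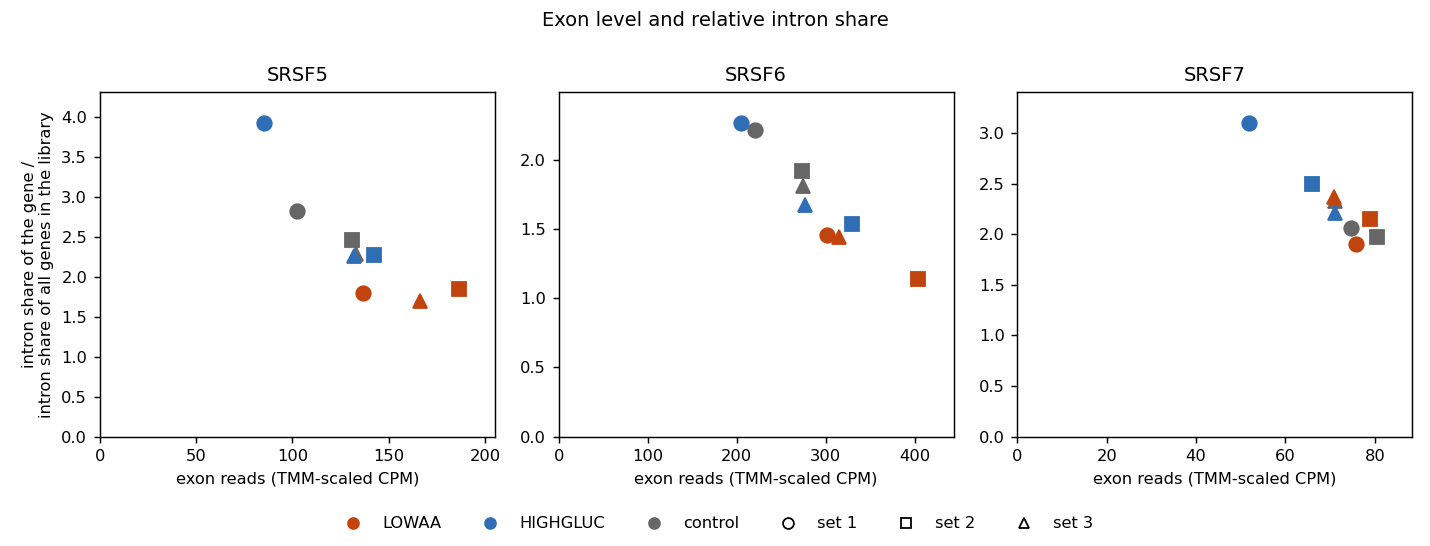
Exon reads of SRSF5, SRSF6 and SRSF7 as TMM-scaled CPM (horizontal axis) against their intron share divided by the intron share over all genes in the same library (vertical axis), 1 point per library. The LOWAA libraries of SRSF5 lie between 1.69 and 1.84, below all HIGHGLUC and control libraries, and those of SRSF7 lie among the others. Exon reads enter both axes, so a high exon level lowers the share by construction.

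Scaled to the library's intron reads, those of SRSF5 and SRSF6 had lower means in LOWAA than in the other groups, unlike their exon reads. The size of these differences depends on this scaling, and so does the direction for SRSF5 and for SRSF6 against HIGHGLUC. Intron reads over all genes were 13.7% of exon and intron reads in LOWAA replicate 12, which lowers its scaled values. On this scale SRSF5 had 263, 379 and 311 intron CPM in LOWAA libraries, 441, 370.3 and 347 intron CPM in HIGHGLUC libraries and 357, 406 and 360.3 intron CPM in control libraries. LOWAA replicates 8 and 15 were the lowest of the 9 libraries, and LOWAA replicate 12 lay among the others. The log2 fold change of intron reads was -0.24 ± 0.19 for LOWAA minus control. SRSF6 had 456, 447 and 490.3 intron CPM in LOWAA libraries, 518, 535 and 506 intron CPM in HIGHGLUC libraries and 575, 612 and 552 intron CPM in control libraries. Its log2 fold change of intron reads was -0.32 ± 0.18 for LOWAA minus control, and its LOWAA libraries lay below all others. Of all members tested on intron reads, none had an adjusted p under 0.05 for LOWAA minus HIGHGLUC or for HIGHGLUC minus control, and neither did any other gene (0% of 9713 in each comparison, LOWAA minus control included). At an unadjusted p under 0.05 there were 747 genes for LOWAA minus HIGHGLUC, 315 for HIGHGLUC minus control and 667 for LOWAA minus control in edgeR's test.

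A fit with exon and intron reads side by side compared the ratio of intron to exon reads between groups. Its term for each library takes up what exon and intron reads of a gene share in that library. Exon reads enter the ratio, so a higher exon level at the same intron level lowers it. Exon and intron reads were scaled separately, each to their own totals, which takes up differences in intron share over all genes. For LOWAA minus control the log2 fold change of this ratio was -0.66 ± 0.23 for SRSF5, -0.72 ± 0.21 for SRSF6 and -0.37 ± 0.21 for SRSF3, and it was 0.20 ± 0.20 for SRSF10 and 0.14 ± 0.20 for SRSF11. Those of the remaining 5 members lay between -0.16 and 0.04. In this comparison SRSF5 had 0.41 in exon reads alone and -0.24 in intron reads alone, and SRSF6 had 0.41 and -0.32. The exon reads of this comparison were part of the choice of the genes. For LOWAA minus HIGHGLUC the log2 fold change of the ratio was below 0 in all 10 members, with a median of -0.29. The median over all 9206 genes in this fit was 0.00. Exon reads, which enter the ratio, were above 0 in all 10 members in this comparison. Intron reads alone were above 0 in 4 of the 10, with a median of -0.06. The ratio of SRSF5 had a log2 fold change of -0.76 ± 0.23 in this comparison, or -0.43 without HIGHGLUC replicate 6. SRSF6 had -0.51 ± 0.21 (unadjusted p = 0.0235, edgeR adjusted p = 0.657), or -0.33 without HIGHGLUC replicate 6, and none of the 9 tested members passed. For HIGHGLUC minus control 7 of 10 members were above 0, with a median of 0.14, and none passed. In each of the 3 comparisons 1 of 9206 genes (0.0109%) had an adjusted p under 0.05 in this fit. The intron share itself, set against control in an exact two-sided permutation test for HIGHGLUC alone, gave p from 0.1 to 0.9 over the 10 members. The smallest adjusted p was 0.889, and 3 libraries against 3 cannot give less than 0.1.

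**Figure D4:**
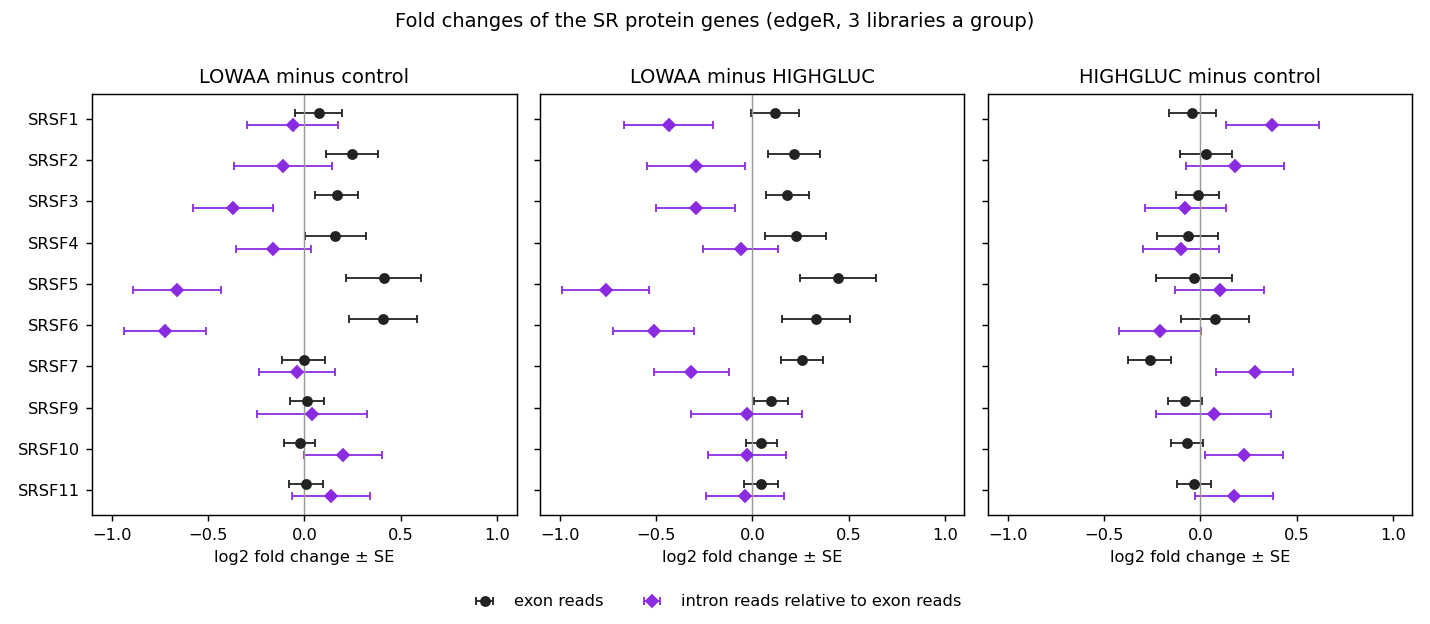
Log2 fold changes with standard errors from edgeR for exon reads (black circles) and for intron reads relative to exon reads (violet diamonds) of the 10 SR protein genes, in LOWAA minus control, LOWAA minus HIGHGLUC and HIGHGLUC minus control. For SRSF5 and SRSF6 the circles lie above 0 and the diamonds below 0 in both LOWAA comparisons. Exon reads enter both, so a higher exon level lowers the diamonds by construction. The LOWAA comparisons share the LOWAA libraries and are not independent.

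SRSF6 was also the gene whose pattern over the 9 libraries was most like that of SRSF5. This pattern takes in differences between sets as well as between groups. Set 1 was low for both genes, at 0.728 of the mean of sets 2 and 3 for SRSF5 and 0.776 for SRSF6. Among 7910 genes with a symbol and a mean of at least 10 CPM, likeness was measured as the root mean square difference of log2 CPM after centring over the 9 libraries. SRSF6 ranked first with 0.09 log2 units, followed by MAFF, a small Maf transcription factor, with 0.11, and RAP2B, a small GTPase of the Ras family, with 0.13. The median over all genes was 0.34, and a gene with the same level in every library would have 0.32. SRSF4 had rank 40, while SRSF10 with 0.32 and SRSF11 with 0.33 were no more like SRSF5 than a flat gene. MAFF averaged 23.8 ± 5.32 CPM in LOWAA, 18.9 ± 3.49 CPM in HIGHGLUC and 18.7 ± 3.71 CPM in control libraries (SD, n = 3 each). RAP2B averaged 85.8 ± 8.57 CPM in LOWAA, 76.1 ± 19.6 CPM in HIGHGLUC and 67.4 ± 8.17 CPM in control libraries (SD, n = 3 each). Both genes were picked for their likeness to SRSF5 in these libraries, so their higher LOWAA means follow from that choice.

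The enzymes that act on SR proteins mostly had lower exon values in LOWAA than in control libraries, without passing the test, but not in LOWAA against HIGHGLUC. The list held 13 genes for SR protein kinases, the phosphatase PP1 and the importer of SR proteins. For LOWAA minus control 3 of the 13 had exon log2 fold changes above 0, with a median of -0.10, beside 50.9% of all genes. None passed edgeR's test (0% of all genes passed it). For LOWAA minus HIGHGLUC 7 of the 13 were above 0, with a median of 0.01, beside 50.1% of all genes. CLK2, a nuclear kinase of SR proteins, averaged 36.3 ± 0.613 CPM in LOWAA, 44.4 ± 1.95 CPM in HIGHGLUC and 43.8 ± 2.92 CPM in control libraries (SD, n = 3 each). Its log2 fold change was -0.27 ± 0.09 for LOWAA minus control (unadjusted p = 0.0112, edgeR adjusted p = 1.00) and -0.29 ± 0.09 for LOWAA minus HIGHGLUC (unadjusted p = 0.00711, edgeR adjusted p = 0.999). CLK4, a kinase of the same family, averaged 27.9 ± 6.57 CPM in LOWAA, 36.6 ± 7.89 CPM in HIGHGLUC and 37.5 ± 5.45 CPM in control libraries (SD, n = 3 each). Its log2 fold change was -0.44 ± 0.20 for LOWAA minus control (unadjusted p = 0.0465, edgeR adjusted p = 1.00). The ratio of intron to exon reads was higher in LOWAA than in control libraries for both kinases, the opposite sign to SRSF5 and SRSF6. On the log2 scale the difference was 0.59 ± 0.22 for CLK2 and 0.64 ± 0.19 for CLK4. Both kinases were named for their exon p in this comparison, and lower exon reads raise the ratio by construction. Nothing is therefore read from the opposite sign. For HIGHGLUC minus control 2 of the 13 genes were above 0, beside 50.0% of all genes. There DYRK1A, a kinase of the nucleus, had the smallest p with a log2 fold change of -0.23 ± 0.08 (edgeR adjusted p = 1.00).

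In the other groups of splicing genes no gene had an adjusted p under 0.05 in exon reads in any comparison by edgeR's test. Of 21 genes for SR-related proteins 16 were above 0 for LOWAA minus HIGHGLUC in exon reads, with a median log2 fold change of 0.09. Over all genes 50.1% were above 0 in that comparison. TRA2B, an SR-like splicing activator, had 0.17 ± 0.09 and a ratio of intron to exon reads of -0.44 ± 0.20 on the log2 scale, and SCAF4, which acts at the end of transcription, had an exon value of -0.41 ± 0.13 (edgeR adjusted p = 0.999 for both). Of 20 genes for hnRNP proteins, which often oppose SR proteins, 16 were above 0 for LOWAA minus HIGHGLUC, with a median of 0.06. HNRNPDL, which also controls its own splicing, averaged 305 ± 23.6 CPM in LOWAA, 249 ± 33.1 CPM in HIGHGLUC and 261 ± 18.9 CPM in control libraries (SD, n = 3 each). Its log2 fold change was 0.29 ± 0.11 for LOWAA minus HIGHGLUC (edgeR adjusted p = 0.999).

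Of 14 genes for the machinery that recognises splice sites 12 were above 0 in exon reads for LOWAA minus HIGHGLUC, with a median of 0.06, and 12 for LOWAA minus control, with a median of 0.07. Over all genes 50.1% and 50.9% were above 0 in these comparisons. In their intron reads all 14 were above 0 for LOWAA minus control, with a median of 0.22, beside -0.01 over all genes. For HIGHGLUC minus control 12 of the 14 were above 0, with a median of 0.13, and for LOWAA minus HIGHGLUC 7 were, with a median of 0.04. For LOWAA minus control 5 of the 10 SR protein genes were above 0 in intron reads. Of 15 genes for nonsense-mediated decay and the exon junction complex, which marks spliced mRNA, 7 were above 0 for LOWAA minus HIGHGLUC in exon reads and 8 for LOWAA minus control. EIF4A3, the anchor of that complex, had a log2 fold change of 0.15 ± 0.07 for LOWAA minus HIGHGLUC (edgeR adjusted p = 0.999), and SMG1, the kinase of the decay pathway, one of -0.17 ± 0.10 for LOWAA minus control (edgeR adjusted p = 1.00).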

How the data were processed

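Per the labels, libraries of total RNA were read on a HiSeq2000 (50 bp, single read) after preparation with a kit that does not mark strand, and per the submitters' processing notes Bowtie2, HTSeq 0.5.4p2 and the build UMD3.1 were used, with no role stated. The file headers call the libraries paired. Per the file headers, exon, unique exon, intron and exon-exon columns of the deposited table are raw read counts per gene. The authors quantile-normalised the signal columns (identical sorted values in all libraries), and their deposited RPKM columns scale exon reads by exon length and library reads. Exon length, transcript number and position are other deposited columns. Of the library columns 119 were not used.

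Counts went into edgeR 4.0.16 in R 4.3.3 (robust quasi-likelihood test, TMM, filterByExpr with minimum count 10, all 9 libraries, group as the only term, Benjamini-Hochberg adjusted p under 0.05), separately for exon, exon-exon and intron reads, and for intron relative to exon reads with library terms. Fits were tested on simulated data. Between libraries of one group chi-square per degree of freedom was 8.67 to 28.1, so none was a duplicate. Sets count as pairs where all library pairs within them have deviations from the group mean correlated above 0.1. Of these pairs 7 of 9 did with total exon reads (0.022 to 0.606) and 9 of 9 with unique exon reads. Alternatives were DESeq2 1.42.0, limma 3.58.1 on log2 of the quantile-normalised signal (pseudocount 1), other scaling, no filter, unique reads, sets as a replicate block and leaving out each library. Named genes are all members, the 2 with the smallest p per list and comparison (not all are printed) and the 3 most like SRSF5. The members and lists were chosen with earlier results of these data known.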

Additional observations from a re-analysis of the deposited data

How the results depend on the processing

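Tests were made for all 10 members in HIGHGLUC minus control and for 9 in LOWAA minus HIGHGLUC, without SRSF5, and for no member in LOWAA minus control. Among these tests no member passed under the alternatives run, with 1 exception. With unique exon reads and the replicate block 1 member, SRSF6, passed for LOWAA minus HIGHGLUC (edgeR adjusted p = 0.0491), and in the other 15 alternatives its adjusted p was at least 0.149. Counts over all genes did depend on the setting. In exon reads the replicate block gave 3 genes for HIGHGLUC minus control, 17 for LOWAA minus HIGHGLUC and 19 for LOWAA minus control, and with unique exon reads as well it gave 7, 36 and 57, where the fit without it gave 0. DESeq2 gave 3 and 4 genes for LOWAA minus HIGHGLUC and LOWAA minus control. In intron reads, without the filter, 14 genes passed for HIGHGLUC minus control, 27 for LOWAA minus HIGHGLUC and 34 for LOWAA minus control, and the replicate block gave 16 and 14 for the LOWAA comparisons. For intron relative to exon reads the counts without the filter were 2, 2 and 15 in the same order, and with unique exon reads 0 for HIGHGLUC minus control and 0 for LOWAA minus control. Leaving out 1 library at a time gave 0 to 1 gene in exon reads (LOWAA minus control), 0 to 2 and 0 to 3 in intron reads (LOWAA minus HIGHGLUC and LOWAA minus control), and 0 to 2, 0 to 2 and 0 to 3 in intron relative to exon reads. The cause of these differences was not tested.

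The members' log2 fold changes took 1230 alternative values, of which 96 had another sign and 8 moved by more than the spread, and their intron shares took 80, of which 13 had another sign and 2 moved. SRSF5 kept its sign for LOWAA minus control in all 17 alternatives for exon reads (0.30 to 0.53) and SRSF6 likewise (0.26 to 0.49). Their intron to exon ratios for LOWAA minus control lay between -0.76 and -0.60 for SRSF5 and between -0.84 and -0.56 for SRSF6 in 11 alternatives. That contrast was part of the choice of the genes and the alternatives reuse the same libraries, so nothing is read from the constant signs. For HIGHGLUC minus control SRSF5 ranged from -0.18 to 0.16, with 3 sign changes. Depth limits SRSF1 and SRSF9 most, which had as few as 12 and 6 intron reads in control replicate 5.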
